A study of Bos grunniens and Bos grunniens x Bos taurus with 6 samples.

Results

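PMP22 and the epithelial membrane proteins EMP1, EMP2 and EMP3 are a small family of tetraspan membrane proteins, and their RNA was compared here between yak and cattle-yak muscle. Gene identifiers were chosen by read count: for each member, the identifier with most reads under its symbol, pooled over all 6 libraries, was taken and all its transcripts were summed. This gave 4 genes of the 31044 in the table, with 45 transcripts between them. PMP22 is ENSBGRG00000015436, EMP1 is ENSBGRG00000001138, EMP2 is ENSBGRG00000026642 and EMP3 is ENSBGRG00000021880. Only pooled reads entered that choice, but the family was proposed with the higher PMP22 level of cattle-yak already known, so the PMP22 values are a description and its p-value is not independent evidence.

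PMP22 is best known from the compact myelin that Schwann cells wrap around peripheral nerve axons, where too much or too little of it causes inherited neuropathy. It is also expressed outside nerve, and is known as a growth arrest-specific gene. The EMP proteins share its fold, sit in the plasma membrane of epithelial, endothelial and connective tissue cells, and have been linked to cell adhesion, membrane blebbing and the trafficking of integrins and caveolins. The deposited annotation gave all 4 members the component terms plasma membrane and integral component of membrane, and the process terms bleb assembly and cell death.

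The samples were longissimus dorsi, a back muscle, from 3 yak and 3 cattle-yak (labelled Bos grunniens x Bos taurus, hybrids of yak and cattle), each read as full-length cDNA on a nanopore sequencer. Neither group carries a treatment in the labels, and the sources used here give no sex, age, feeding, cross direction or batch. Nothing states that the samples of a group are separate animals, so p-values reflect sample spread that could in part be technical. The libraries held 2350851 to 2769106 counts, and 12 of 14 skeletal muscle fibre markers were matched and tested, with a summed level of at least 148900 CPM in each library.

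PMP22 was about 3.58-fold higher in cattle-yak, EMP1 was lower, EMP2 was higher with a transcript absent in yak in its sum, and EMP3 did not pass the test. Levels are CPM, read counts scaled to library size, after TMM scaling, and log2 differences are the log2 fold changes of cattle-yak over yak from edgeR's quasi-likelihood test with Benjamini-Hochberg adjustment over all 7504 genes tested. At an adjusted p under 0.05, 3 of the 4 members were called, and the same rule called 12.6% of all genes (6.45% higher and 6.18% lower in cattle-yak). Nothing is read from the count, since it includes PMP22, known beforehand; of the other 3, EMP1 and EMP2 were called.

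PMP22 had 132, 81 and 139 reads in yak 1, 2 and 3, and 455, 371 and 630 in cattle-yak 1, 2 and 3. On the CPM scale these were 58.6, 35.4 and 62.6 in yak, and 180.1, 149.0 and 231.3 in cattle-yak. The groups did not overlap, as they did not in 33% of all genes tested, and the lowest cattle-yak library lay far above the highest yak library. The mean level went from 52.2 ± 14.7 to 186.8 ± 41.6 CPM (± SD of 3), a log2 difference of 1.84 ± 0.23 (± SE; adjusted p = 0.000387 in edgeR). In a ranking of all genes by p-value, PMP22 stood at place 54.

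EMP1, whose protein is found in many epithelia, went the opposite way. Its libraries held 72, 89 and 116 yak reads and 46, 28 and 37 cattle-yak reads. The corresponding levels were 31.9, 38.9 and 52.3 CPM against 18.2, 11.3 and 13.6 CPM, with every cattle-yak library below every yak library. EMP1 fell from a mean of 41.0 ± 10.3 to 14.4 ± 3.54 CPM (± SD of 3), a log2 difference of -1.51 ± 0.26 (adjusted p = 0.00219 in edgeR).

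Because PMP22 and EMP1 moved apart, the ratio of their reads within a library, which needs no scaling between libraries, was also formed. The yak libraries gave 1.83, 0.91 and 1.20, and the cattle-yak libraries 9.89, 13.2 and 17.0. The reads are not per length, so only the change of the ratio is read. On the log2 scale the ratio was 3.38 higher in cattle-yak, with no overlap. The ratio was chosen for this difference, so it is a description, with no test.

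EMP2, which is known to act on integrin and caveolin traffic at the cell surface, had 46, 63 and 48 yak reads and 118, 84 and 108 cattle-yak reads. The levels were 20.4, 27.5 and 21.6 CPM in yak and 46.7, 33.7 and 39.7 CPM in cattle-yak, again without overlap. The mean rose from 23.2 ± 3.80 to 40.0 ± 6.49 CPM (± SD of 3), a log2 difference of 0.79 ± 0.22 (adjusted p = 0.0307 in edgeR). This call was lost without yak 1 (adjusted p = 0.115), yak 3 (0.122), cattle-yak 1 (0.0914) or cattle-yak 3 (0.066). DESeq2 (adjusted p = 0.0632), a fit with no low count filter (0.112), assembled transcripts only (0.0579) and reference transcripts only (0.0839) did not call it either.

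EMP3, which carries a blood group antigen and is expressed in many tissues, had 41, 35 and 60 yak reads and 25, 45 and 43 cattle-yak reads. Its levels were 18.2, 15.3 and 27.0 CPM in yak and 9.90, 18.1 and 15.8 CPM in cattle-yak, and the groups overlapped. The log2 difference was -0.46 ± 0.30 (adjusted p = 0.353 in edgeR). No alternative setting called it, and its sign was the same in all of them.

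**Figure D1:**
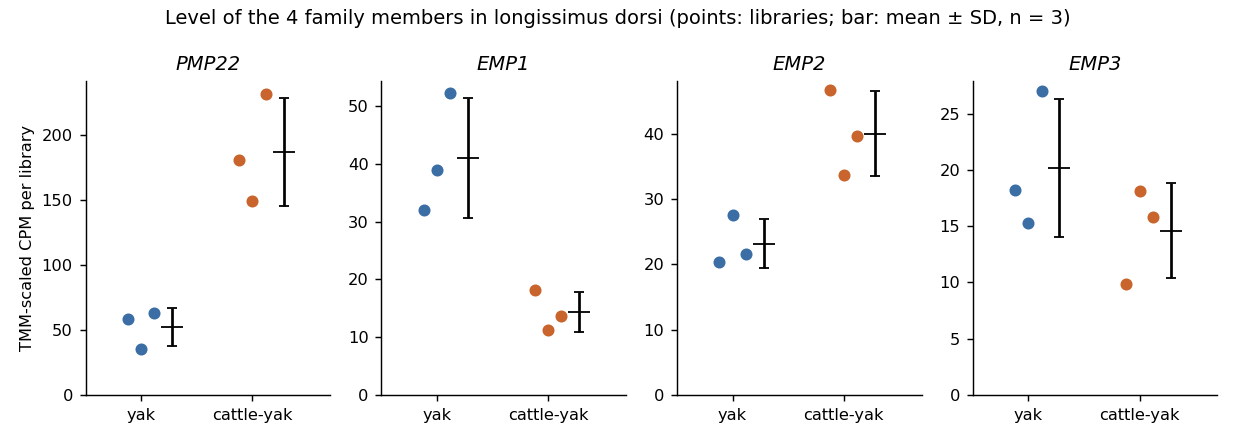
TMM-scaled CPM of PMP22, EMP1, EMP2 and EMP3 (y axis, from 0) in each of the 6 libraries, with points for libraries and a bar for the mean ± SD of 3. PMP22 went from 52.2 to 186.8 CPM and EMP1 from 41.0 to 14.4 CPM with no overlap, whereas the EMP3 libraries overlapped.

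Scaling by library size alone shifted the median over all genes from a log2 difference of 0.024 to one of 0.181, and the directions held for all 4 members. The values were then 1.99 for PMP22, -1.35 for EMP1, 0.95 for EMP2 and -0.31 for EMP3, the first 3 of them called. PMP22 was called under each of its 16 alternatives, with log2 differences between 1.60 and 1.99, and so was EMP1 under its 16, between -1.72 and -1.32.

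**Figure D2:**
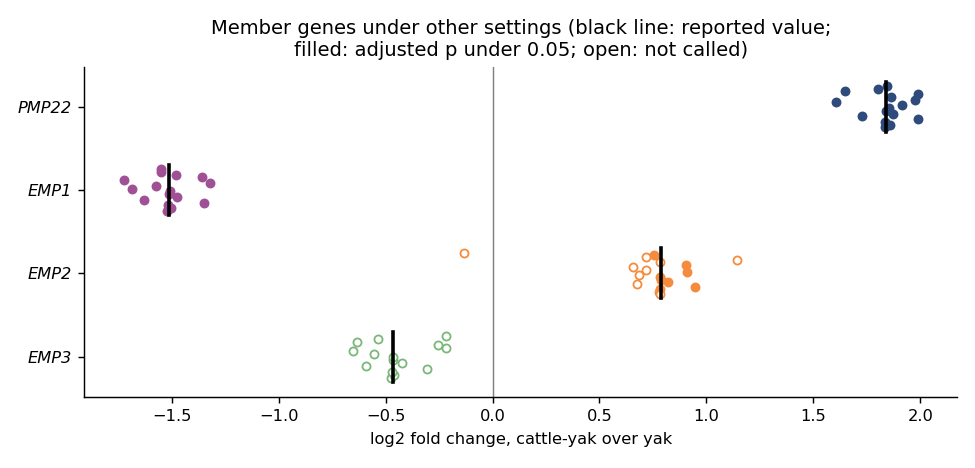
Log2 difference of each member gene (x axis) under the other settings, as points that are filled where the adjusted p was under 0.05, with a black line at the reported value. PMP22 and EMP1 stayed on 1 side of 0 and called throughout, while EMP2 moved to -0.13 when the transcript absent in yak was left out.

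The transcripts behind these sums were examined next. Of the 45 transcripts, 10 passed the filter on low counts and 35 did not. Of the tested ones, 5 were called higher and 2 lower in cattle-yak, which is 7 of 10, and the same rule called 18.5% of all 15804 transcripts tested (9.64% higher, 8.86% lower). Nothing is read from the count, since 4 of the 7 are of PMP22 and 1, TALONT001466886 of EMP2, passed the filter only through cattle-yak. Of the other 5 tested, both EMP1 transcripts were called lower and 3 did not pass. The filter asks for about 10 reads in at least 3 libraries. TALONT000674817 and TALONT000671153 of PMP22 and ENSBGRT00000049377 of EMP2 also passed it only through cattle-yak, where they were higher. TALONT000790700 of EMP1 passed it only through yak, where it was higher. The transcripts of a gene share its total, so these are not independent of the gene values above. Reference identifiers covered 3 of the 45 and none of those of PMP22 or EMP1.

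PMP22 was spread over 28 assembled transcripts. Its first, TALONT000671177, had 56, 34 and 62 yak reads and 188, 111 and 212 cattle-yak reads, a log2 difference of 1.56 ± 0.28 (± SE; adjusted p = 0.00187 in edgeR). TALONT000671152, the next in abundance, had 37, 25 and 32 yak reads and 101, 147 and 214 cattle-yak reads (2.11 ± 0.29). The other tested PMP22 transcripts, TALONT000674817 (2.68 ± 0.40) and TALONT000671153 (2.05 ± 0.41), also rose, so all 4 tested were called in the same direction. They had 11, 3 and 10, and 7, 4 and 14 yak reads, and passed the filter only through their cattle-yak reads. That filter favours a rise, and the gene's known rise implies the shared direction in part, so the direction is not separate support. The 24 transcripts under the filter held 2 to 27 reads each, 57 in yak and 187 in cattle-yak in all.

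Within PMP22, TALONT000671177 held 43.0% ± 1.41 of the gene's reads in yak and 35.0% ± 5.81 in cattle-yak (± SD of 3), without overlap, and TALONT000671152 held 27.3% ± 3.97 and 31.9% ± 8.89, with overlap. TALONT000671177 had the larger share of the pair in the 3 yak libraries and in cattle-yak 1, and the smaller one in cattle-yak 2 and cattle-yak 3. TALONT000674817 held 6.41% ± 2.41 in yak and 12.2% ± 1.05 in cattle-yak, without overlap. TALONT000671153 held 6.77% ± 2.86 and 8.20% ± 0.70, with overlap. The usage test, which asks whether the transcripts of a gene change by different amounts (edgeR's diffSpliceDGE on transcripts with at least 5% of the gene's counts), did not call PMP22 (adjusted p = 0.488), and called 8.62% of the 1821 genes tested.

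EMP1 had 4 transcripts, of which the tested pair held nearly all reads. TALONT000790808, described in the table as Bos taurus epithelial membrane protein 1, had 33, 42 and 67 yak reads and 26, 19 and 27 cattle-yak reads (log2 difference -1.16 ± 0.32; adjusted p = 0.0235 in edgeR). That call was lost without yak 3 (adjusted p = 0.131) or cattle-yak 2 (0.0817). TALONT000790700, described only as a hypothetical protein, had 37, 45 and 47 yak reads and 18, 9 and 9 cattle-yak reads (-2.0 ± 0.35). It was called lower, but passed the filter on low counts only through its yak reads, so no p-value is given for it. It held 47.5% ± 6.05 of EMP1 reads in yak, against 31.9% ± 7.41 in cattle-yak (± SD of 3), without overlap. TALONT000790808 held 50.3% ± 6.53 and 65.8% ± 8.42, with overlap (two-sided exact permutation p = 0.2, where 3 against 3 allows no less than 0.1). The usage test did not call EMP1 (adjusted p = 0.299 in edgeR).

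In EMP2 the most abundant transcript of the cattle-yak libraries was not that of the yak libraries. TALONT001466886 had no read in any yak library and 47, 50 and 49 reads in cattle-yak 1, 2 and 3. With a yak floor of 3 counts for the whole group, it was at least 43.1-fold higher in cattle-yak. It passed the filter on low counts only through its cattle-yak reads, so no p-value is given for it. It made up 48.2% ± 10.2 of EMP2 reads in cattle-yak (± SD of 3), while 0 of 157 yak reads allows a share of up to 1.91%. This floor covers counting error only. Of the 15804 tested transcripts, 43 (0.272%) had no yak read, and 6 of these had at least 146 cattle-yak reads, this one included. No tested transcript lacked cattle-yak reads.

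The main EMP2 transcript of yak, TALONT001466887, had 38, 49 and 35 yak reads and 43, 18 and 27 cattle-yak reads. Its level was 19.6 ± 3.18 CPM in yak against 12.5 ± 5.42 CPM in cattle-yak, and it did not pass the test (log2 difference -0.64 ± 0.33; adjusted p = 0.201 in edgeR). It held 77.8% ± 4.85 of EMP2 reads in yak, against 27.6% ± 7.84 in cattle-yak (± SD of 3), with no overlap. The EMP2 reads of cattle-yak include those of TALONT001466886, which by itself lowers this share, so no p-value is given for it. The reference transcript ENSBGRT00000049377 had 5, 8 and 12 yak reads and 21, 13 and 21 cattle-yak reads (0.95 ± 0.41; adjusted p = 0.126 in edgeR). It too passed the filter on low counts only through its cattle-yak reads. Its share did not separate the groups, at 16.2% ± 7.69 and 17.6% ± 1.99. The usage test called EMP2, also under each of its 10 alternatives. All of them compared TALONT001466886, which entered through its cattle-yak reads. No p-value is therefore given for this call, and its return under the alternatives is not separate support.

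With TALONT001466886 left out of the sum, EMP2 had 46, 63 and 48 yak reads and 71, 34 and 59 cattle-yak reads. The level was then 23.2 ± 3.80 CPM in yak and 21.1 ± 7.24 in cattle-yak (± SD of 3), the groups overlapped, and the log2 difference was -0.13 ± 0.28 (adjusted p = 0.796 in edgeR). TALONT001466886 was left out because it has no yak read, so its removal could only lower the cattle-yak side. The values without it are thus a description and not a test. Both TALONT001466886 and TALONT001466887 are described in the table as Bos mutus epithelial membrane protein 2. A separate isoform and a cattle allele assembled under its own identifier cannot be told apart from these counts.

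EMP3 lay almost wholly in the reference transcript ENSBGRT00000040420, with 92.6% ± 2.11 of the gene's reads in yak and 93.4% ± 2.46 in cattle-yak (± SD of 3). That transcript did not pass (log2 difference -0.44 ± 0.32; adjusted p = 0.377 in edgeR). With 1 transcript past the filter, EMP3 was not in the usage test.

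**Figure D3:**
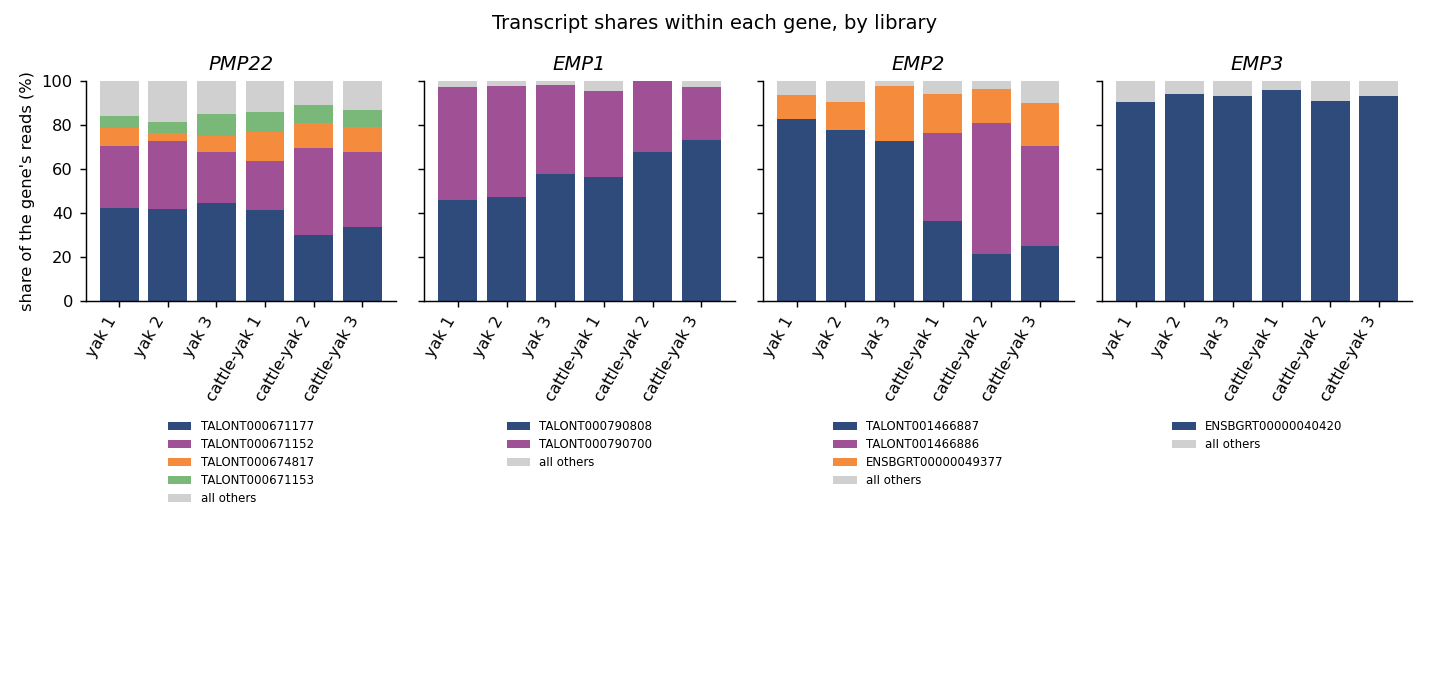
Share of each gene's reads (y axis, percent) held by its tested transcripts in the 6 libraries (x axis), with all other transcripts in grey. In EMP2 the transcript TALONT001466886 is absent in yak and averages 48.2% in cattle-yak, while in EMP3 a single transcript holds most reads in all 6 libraries.

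**Figure D4:**
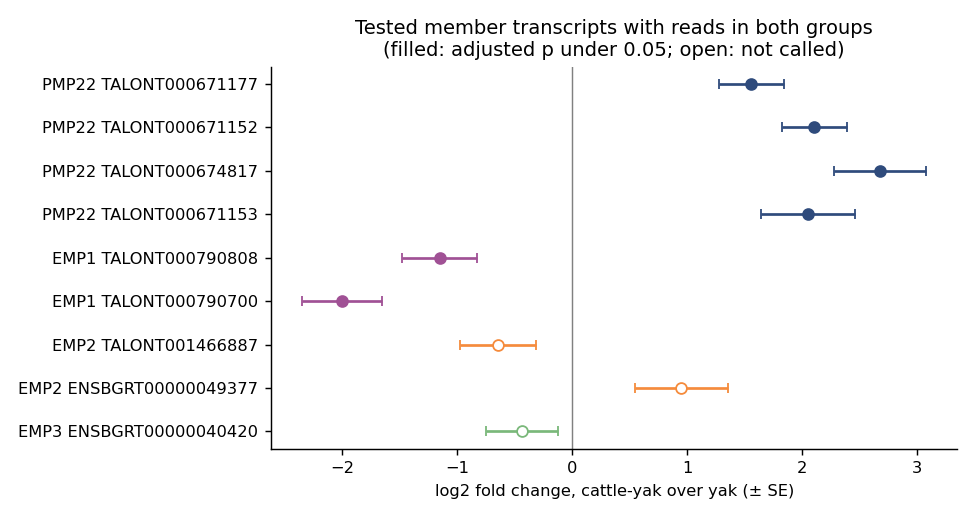
Log2 difference ± SE (x axis) of the 9 tested member transcripts with reads in both groups, filled where the adjusted p was under 0.05. All 4 PMP22 transcripts lie above 0 and both EMP1 transcripts below it, and no EMP2 or EMP3 transcript shown was called. TALONT000674817, TALONT000671153 and ENSBGRT00000049377 passed the filter only through cattle-yak, and TALONT000790700 only through yak.

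PMP22 is a myelin gene, so Schwann cell markers were set beside it. Of 25 listed markers, 13 were matched to a gene and 4 tested, and none was called, with 2 at an unadjusted p under 0.05. S100B, a glial calcium-binding protein, had a log2 difference of -0.13 ± 0.19 (adjusted p = 0.698 in edgeR). The summed level of the matched markers was 77.5 to 99.4 CPM in yak and 81.1 to 110.2 CPM in cattle-yak. The myelin genes MBP and MAG had at most 4 reads in any library, and MAG had none in yak. In bulk muscle, fewer cells of a type and less RNA per cell cannot be told apart.

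Markers of cells that carry EMP proteins were read in the same way. Of 12 endothelial markers 6 were tested and none was called (PECAM1 at 0.29 ± 0.29 and ESAM at 0.16 ± 0.32), with none at an unadjusted p under 0.05. Their summed level was 68.6 to 86.1 CPM in yak and 76.4 to 137.8 in cattle-yak. Of 11 tested fibroblast markers 3 fell, LUM (log2 difference -1.46 ± 0.22), COL3A1 (-1.27 ± 0.24) and COL1A2 (-1.17 ± 0.27), and 1 rose, CLEC3B (1.22 ± 0.22). The summed fibroblast level was 619.9 to 759.0 CPM in yak and 446.9 to 707.4 in cattle-yak, beside the fall of EMP1, and its part in that fall was not tested. Of 4 tested macrophage markers, CTSS rose (1.44 ± 0.29), with 53.4% of its reads under that name. Of the 4, 3 had an unadjusted p under 0.05, among them C1QA (1.38 ± 0.61) and C1QB (1.46 ± 0.62), and the list median was 1.41. The summed level was 23.6 to 54.5 CPM in yak and 49.5 to 120.9 in cattle-yak. Its part in the member values was not tested. Beside the calls in these lists, the same test called 12.6% of all genes, 6.45% higher and 6.18% lower in cattle-yak.

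None of 8 smooth muscle and pericyte markers was called (2 at an unadjusted p under 0.05), with TPM2 at -0.42 ± 0.16 and TAGLN at -0.01 ± 0.19. TPM2 stood at 43290 CPM in yak and 32280 in cattle-yak, on the scale of the fibre marker MYH2 (26780 and 16970). It is thus not read as a marker of smooth muscle or pericytes, and 61.1% of its reads carry that name. Neither of the 2 tested satellite cell markers was called, ITGA7 (-0.07 ± 0.25) and SDC4 (0.00 ± 0.35). Of 5 adipocyte markers GPD1 fell (-0.76 ± 0.21) and PLIN4 rose (1.49 ± 0.36), although only 24.1% of the PLIN4 reads carry that name. With 9 reads in yak 3, PLIN4 passed the filter on low counts only with its cattle-yak reads, where it was higher. The GPD1 call was lost without any of the libraries but cattle-yak 3 (adjusted p up to 0.11), and the PLIN4 call on removal of any 1 of yak 1, yak 3 and cattle-yak 3 (up to 0.0771). Of 12 muscle fibre markers TTN (0.64 ± 0.17) and DES (0.70 ± 0.17) rose, MB (-0.92 ± 0.17) and MYH2 (-0.66 ± 0.15) fell, and 8 did not pass. The called shares, 2 of 5 and 4 of 12, stand beside the 12.6% of all genes. Summed levels were 1329 to 1562 CPM in yak and 684.4 to 1152 in cattle-yak for the adipocyte list, without overlap. Most of that sum was GPD1, at 1231 ± 125.7 CPM in yak and 727.7 ± 241.2 in cattle-yak (± SD of 3). ADIPOQ, PLIN1, LEP and LIPE were not matched, so the sum is not read as a measure of adipocytes. For the fibre list the sums were 167900 to 175100 against 148900 to 158900 CPM, also without overlap. The part of both sums in the member values was not tested. Leaving out single libraries ended the calls of TTN (all but cattle-yak 3, adjusted p up to 0.132), DES (yak 2 or 3, up to 0.0891) and MYH2 (yak 2, 0.0697).

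Relatives and partners of the family were taken from further lists. Of 40 genes of the wider superfamily that holds the claudins and the calcium channel gamma subunits, 14 were matched and 2 tested. Neither CACNG6, a gamma subunit (log2 difference 0.09 ± 0.36), nor CLDND1, a claudin domain protein (-0.02 ± 0.23), was called (edgeR adjusted p = 0.9 and 0.968), and their median of 0.036 lay near the 0.024 of all genes. Of 11 integrin, focal adhesion and caveolin partners, CAVIN4, the muscle cavin of caveolae, fell from 184.9 ± 31.7 to 98.8 ± 16.4 CPM (± SD of 3; -0.90 ± 0.18; adjusted p = 0.0065 in edgeR), and 10 did not pass. The same test called 12.6% of all genes. In this list 2 genes had an unadjusted p under 0.05, CAVIN4 and ITGAV, the latter higher in cattle-yak (1.845 ± 0.565, adjusted p = 0.0673 in edgeR). The list median was -0.07.

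Tetraspanins are tetraspan proteins too, but unrelated in sequence. Of 11 tested, 2 rose, none fell and 9 did not pass, with a list median of 0.28. Over all genes, 6.45% were called higher and 6.18% lower in cattle-yak. CD81 rose from 17.5 ± 1.48 to 35.9 ± 7.29 CPM (± SD of 3; log2 fold change 1.04 ± 0.23; adjusted p = 0.0097 in edgeR). CD63, of late endosomes and exosomes, rose by 0.61 ± 0.17 on the log2 scale (adjusted p = 0.0325 in edgeR), a call lost without yak 1, 2 or 3 or cattle-yak 1 (adjusted p up to 0.155), and in other settings. Of 6 tested genes from a list on growth arrest, 2 rose and 4 did not pass, with a median of 0.40, beside the same 6.45% of all genes called higher. Of the listed genes that share the name growth arrest-specific with PMP22 none was tested, GAS6 being under the filter and the others not matched. Those that rose were BTG1 (1.31 ± 0.29), an antiproliferative factor, and GADD45A (1.41 ± 0.37), a stress-induced growth arrest gene. The BTG1 call was lost without yak 3 (adjusted p = 0.0504), and that of GADD45A on removal of any 1 of yak 1, yak 3 and cattle-yak 1 (up to 0.0966).

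Chaperones and degradation factors that handle membrane proteins such as PMP22 in the endoplasmic reticulum were also listed. None of 11 tested was called, with 1 at an unadjusted p under 0.05 and a median of -0.12. The chaperone CALR had a log2 difference of 0.50 ± 0.18 (adjusted p = 0.0871 in edgeR, and 0.0323 with library size alone) and the ATPase VCP one of -0.12 ± 0.16. Among 6 tested genes of the neuromuscular junction and the response to denervation none was called (0 at an unadjusted p under 0.05), with MYOG at -0.04 ± 0.30 and RAPSN at 0.40 ± 0.27.

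**Figure D5:**
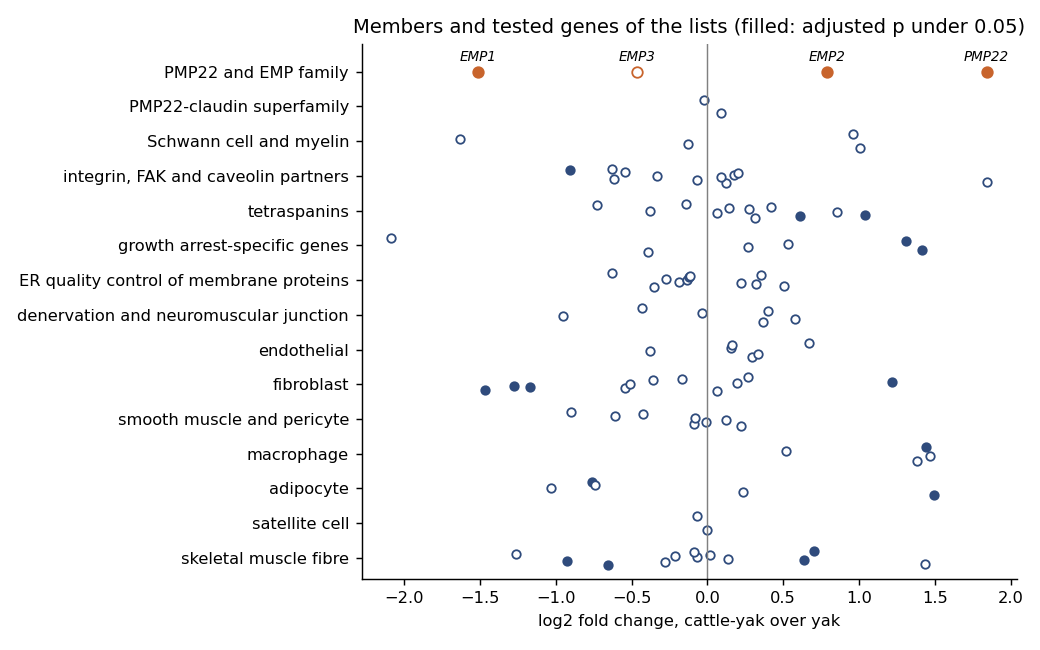
Log2 difference (x axis) of the 4 members, in orange, and of each tested gene of the 14 lists, in blue, filled where the adjusted p was under 0.05. PMP22 at 1.84 and EMP1 at -1.51 lie far apart, while the tested genes of the superfamily and of the Schwann cell list were not called.

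The genes with the most similar pattern over the 6 libraries were found by Pearson's r of log2 CPM, among 3777 named genes with a mean of at least 10 CPM. This is a description, since all libraries share the split into groups. Among the closest to PMP22 were MYL12A, a regulatory light chain of non-muscle myosin (r = 0.991), MAK16 (0.983), PBDC1 (0.980) and DDX27 (0.980). MYL12A went from 1241 ± 207 to 2919 ± 340 CPM (± SD of 3). The closest to EMP1 were SUCLA2 of the tricarboxylic acid cycle (0.997), VAMP3 of vesicle fusion (0.996) and UQCC1, an assembly factor of the respiratory chain (0.993). H2B-I (0.988), FKBP5 (0.987) and METTL7B (0.985) were closest to EMP2, and AUH (0.983), MCU (0.981) and ABRA (0.975) to EMP3. For PMP22, 37 genes had an r over 0.95, and for EMP3 7 did.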

How the data were processed

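The table the authors deposited gives a raw read count per transcript and library and a CPM, which per the file headers and values is the count over the library total. The largest difference between the deposited CPM and that quotient was 0.005. Per the submitters' processing notes, fastp, minimap2 and GSNAP were used; the sources used here name no build or counting software. Transcripts without a gene identifier (61) and 132 lines with overflowing text and no values were left out. A gene took the symbol that held at least 50% of its symbol-bearing reads and 2% of all its reads, and where identifiers shared a symbol the most abundant one was used. Reads of overlapping genes or gene copies may be shared.

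Gene and transcript counts were tested over the whole table in R 4.3.3 by edgeR 4.0.16 (TMM scaling, filterByExpr, quasi-likelihood, robust dispersion). The same code was run on simulated counts with a common spread for all features, unlike the data. The outcome of that run is not reported here and lends the calls no support. The SE is the log2 fold change over the square root of F. Alternatives were DESeq2 1.42.0, voom of limma 3.58.1, other scalings, filters and transcript sets, a replicate block, and leaving out each library. Exact permutation tests used scipy 1.17.1.

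The members and the 14 gene lists were chosen with earlier results of these data known. Named were the members, their transcripts that were tested or held 5% of reads, up to 4 called genes of each list (else the 2 most abundant), and the genes most alike in pattern (5 for PMP22, 3 for each other member). Values of some listed or ranked genes are not reported here.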

Additional observations from a re-analysis of the deposited data

How the results depend on the processing

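Leaving the transcript absent in yak out of EMP2, and the ratio of PMP22 to EMP1 reads, were chosen after seeing the data, as were the list counts beyond library size alone and no low count filter. The log2 fold change of EMP2 was 0.78 with DESeq2, 0.67 with no low count filter, 1.14 with reference transcripts only and 0.72 with assembled transcripts only, not called in any of these, between 0.66 and 0.91 without 1 library, and -0.13 without the transcript absent in yak, whose removal itself takes those reads away. Reference transcripts only gave no value for PMP22 and EMP1, which have none, and assembled ones only gave none for EMP3. Of 65 values of member genes under the alternatives 56 kept direction and side of the threshold, as did 135 of 137 of member transcripts. Without 1 library, 6 to 7 member transcripts were called and 1 member gene, EMP2, in usage, always with TALONT001466886 among the transcripts compared. The difference in share ranged from -0.55 to 1.89 points for the EMP3 main transcript, which has no clear direction, and from 42.6 to 52.5 for the EMP2 transcript absent in yak. Genes called in the lists were 16, with 28 when no low count filter was used and 4 with reference transcripts only, which test more and fewer genes, and 11 to 20 without 1 library.

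The replicate numbers did not pair the libraries (correlation of same-numbered deviations -0.038, -0.016 and 0.017). With the replicate block the log2 fold changes were 1.85 for PMP22, -1.51 for EMP1, 0.78 for EMP2 and -0.47 for EMP3, with 890 genes called against 948.

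Uncalled list genes near 0 changed sign: with library size alone CLDND1 was 0.13, ITGA7 0.10, MYOG 0.11, S100B 0.031, TAGLN 0.15 and VCP 0.036; with a mean of at least 10 CPM CLDND1 was 0.015 and TAGLN 0.022; with reference transcripts only CLDND1 was 0.20 and TAGLN 0.37; with assembled ones CACNG6 was -0.085. With no low count filter CACNG6 was -0.037 and SDC4 -0.12, and SDC4 was -0.0077 with DESeq2 and -0.0065 with RLE size factors. Without 1 library the ranges were -0.25 to 0.32 for CACNG6, -0.19 to 0.10 for CLDND1, -0.072 to 0.47 for ESAM, -0.31 to 0.091 for ITGA7, -0.46 to 0.23 for MYOG, -0.012 to 0.47 for PECAM1, -0.39 to 0.78 for SDC4 and -0.22 to 0.087 for TAGLN. The cause was not tested. EMP1, EMP2 and EMP3 rest on 111 to 310 reads a group, which limits their precision.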

Other observations

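A further assembled gene, TALONG000083492, carries the name PMP22 on 10 of its 45 reads and was not counted among the members. It had 3, 0 and 3 yak reads and 12, 13 and 14 cattle-yak reads (log2 difference 2.44 ± 0.63), without overlap. It passed the filter on low counts only through its cattle-yak reads, so no p-value is given for it. With all transcripts named PMP22 summed, whatever their gene, the PMP22 log2 fold change was 1.85.

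In the superfamily list, 12 matched genes lay under the filter, and those named here were chosen after their values were seen. CACNG4, a calcium channel gamma subunit, had no read in yak and 8, 5 and 13 in cattle-yak, but only 7.69% of its reads carry that name. CLDN1, a tight junction claudin, had 4, 3 and 1 yak reads and 7, 7 and 22 cattle-yak reads. PERP, a tetraspan desmosome protein, had 4, 0 and 1 against 6, 1 and 1.

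By the order of genes in RefSeq's annotation of the yak assembly Bosgru_T2T1.0, which is not known to be the build of the files, the 3 protein-coding neighbours on each side of each member were looked up by name. Of these 24, 10 were matched and 7 tested, and none was called by edgeR, with adjusted p from 0.0906 upwards. COX10, near PMP22, had a log2 difference of -0.91 ± 0.33 (adjusted p = 0.0906 in edgeR) and TMEM143, beside EMP3, one of -0.92 ± 0.34 (adjusted p = 0.096 in edgeR).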
